A study of Mus musculus with 30 samples.

Results

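The 9 genes described here, Tmem119, Cx3cr1, Siglech, Fcrls, Gpr34, Gpr165, Olfml3, Sparc and Ltc4s, are markers of homeostatic microglia, the brain's and cord's own macrophages in their resting state. They were chosen by name, as the rows of the deposited mouse expression table that carry these symbols, and they make up 9 of its 24888 rows. RNA was measured in CD11b-selected cells of the caudal lumbar spinal cord of C57BL/6J mice, after perfusion and magnetic removal of myelin. Injured mice had sciatic nerve transection (SNT) for 1, 2, 4 or 7 days, chronic constriction injury (CCI) for 2 or 7 days, or spared nerve injury (SNI) for 7 days, with 2 libraries for each. Chronic morphine came in 2 dosing schedules, fixed (4 libraries) and escalating (3 libraries), and saline controls exist for the fixed (4 libraries) and the escalating (3 libraries) schedule. Mice with neither treatment nor injury (naive) gave 2 libraries. No group carried an engineered allele in the labels, which give no dose, age or sex and leave unsaid whether any 2 libraries share an animal. The p-values therefore measure the spread between these libraries.

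Microglia hold a set of transcripts that other macrophages lack or carry at low levels, and in mice this set depends on TGF-beta signalling and on the transcription factors PU.1 and Sall1. Several of these genes code for surface receptors through which microglia read signals from neurons and dying cells, and the set is known to fall in mice when microglia take on a disease-associated state. Cx3cr1 is the receptor for the neuronal chemokine fractalkine, Gpr34 responds to lysophosphatidylserine, and Gpr165 is an orphan G protein-coupled receptor. Siglech belongs to the Siglec family of lectins and signals through DAP12. Fcrls is an Fc receptor-like scavenger receptor, and Tmem119 is a membrane protein used to tell microglia from infiltrating macrophages. Olfml3 and Sparc are secreted glycoproteins of the matrix. Ltc4s makes leukotriene C4 on intracellular membranes, so it is a surface or secreted marker only through its lipid product.

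The promoters of Siglech and Olfml3 are shown because these genes had the most opposed levels of any pair of the 9 markers. Each is the 250 bases before the RefSeq start of the gene in GRCm38.p6, written 5′ to 3′ on the strand of the gene. Capitals mark AGGAAG on either strand (its reverse complement is CTTCCT). It contains GGAA, the core letters that PU.1 and other ETS factors recognise. GGAA with other letters around it is in both windows and is not marked. Siglech lies on the plus strand at chr7:55767934-55768183, and Olfml3 on the minus strand at chr3:103738002-103738251.
Siglech: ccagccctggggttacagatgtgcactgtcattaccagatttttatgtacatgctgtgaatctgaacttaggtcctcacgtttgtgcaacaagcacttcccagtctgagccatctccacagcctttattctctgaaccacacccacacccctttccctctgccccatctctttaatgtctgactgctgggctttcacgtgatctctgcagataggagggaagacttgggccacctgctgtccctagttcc
Olfml3: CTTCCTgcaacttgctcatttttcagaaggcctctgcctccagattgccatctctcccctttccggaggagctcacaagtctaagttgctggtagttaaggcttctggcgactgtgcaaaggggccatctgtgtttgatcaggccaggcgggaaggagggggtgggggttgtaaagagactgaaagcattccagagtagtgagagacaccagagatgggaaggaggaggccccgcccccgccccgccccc
The Olfml3 window held 1 match, at its far end, and the Siglech window held 0, which says only that AGGAAG is not in this window. RefSeq windows were matched for 7 of the 9 markers, and 3 of these 7 (Fcrls, Ltc4s and Olfml3) held AGGAAG. Of 32851 promoters of the same length, 29.5% held it. The longer form GAGGAAGT, which contains AGGAAG, was in 2.44% of promoters and in 0 of the 7. A match describes letters and is not a shown binding site.

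Values are FPKM, sequenced fragments divided by transcript length and by the fragments mapped in the library, and all tests used log2(FPKM + 1). The files hold no counts, so sequencing depth is unknown. In its place each library has a relative floor: its nonzero FPKM were multiplied by transcript length in kilobases, and the value at the 5th percentile was read. A library with a low floor registers scarcer transcripts. Floors ran from 0.118 to 0.135 in fixed morphine and from 0.350 to 0.539 in fixed saline, with no overlap. They ran from 0.146 to 0.450 in escalating morphine and from 0.256 to 0.618 in escalating saline. SNT libraries spanned 0.148 to 0.599, CCI and SNI libraries 0.0933 to 0.215, and naive libraries 0.0977 to 0.269. Genes with at least 1 FPKM numbered 8069 to 10478 per library and were under 9000 in SNT day 1 replicate 1, SNT day 7 replicate 1 and SNT day 2 replicate 2. The sorted cells carried microglial markers: 15 core genes, among them Csf1r and P2ry12, summed to 22434 to 42018 FPKM in injured mice, 24259 to 39206 under morphine and 26478 to 38728 in controls. CD11b is also carried by neutrophils, and the 14 neutrophil markers in the table, led by S100a8 and S100a9, summed to 2034 to 20986 FPKM in injured mice, 1849 to 19009 under morphine and 5715 to 63254 in controls. The highest sum belonged to escalating saline replicate 9. In bulk RNA, fewer cells of a type and less RNA per cell cannot be told apart.

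All 9 markers passed the filter on low values (2 or more libraries at 1 FPKM or above), as did 11759 genes in all. Sparc had the highest median of the 9 over the 30 libraries (1360 FPKM, the 24th highest of the 11759 genes), followed by Olfml3 (1078), Tmem119 (1058) and Cx3cr1 (1005). Fcrls followed at 676 FPKM, Siglech at 574, Gpr34 at 442 and Ltc4s at 139.7. Gpr165 was the scarce member at 12.7 FPKM, the 3583rd gene. FPKM is per length, so these levels can be set beside each other. Their spread differed: the highest library exceeded the lowest 2.21-fold for Sparc, 3.13-fold for Siglech, 3.25-fold for Gpr34, 3.89-fold for Fcrls, 4.17-fold for Cx3cr1, 5.52-fold for Tmem119, 6.21-fold for Olfml3 and 7.58-fold for Ltc4s. Gpr165 was listed at 0 in escalating saline replicate 9, so no ratio is given for it. When the 12 groups were ordered by mean, neighbours in that order overlapped in all 11 pairs for Tmem119, Cx3cr1, Fcrls, Gpr34, Gpr165 and Ltc4s, and in all but 1 for Siglech, Olfml3 and Sparc.

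**Figure D1:**
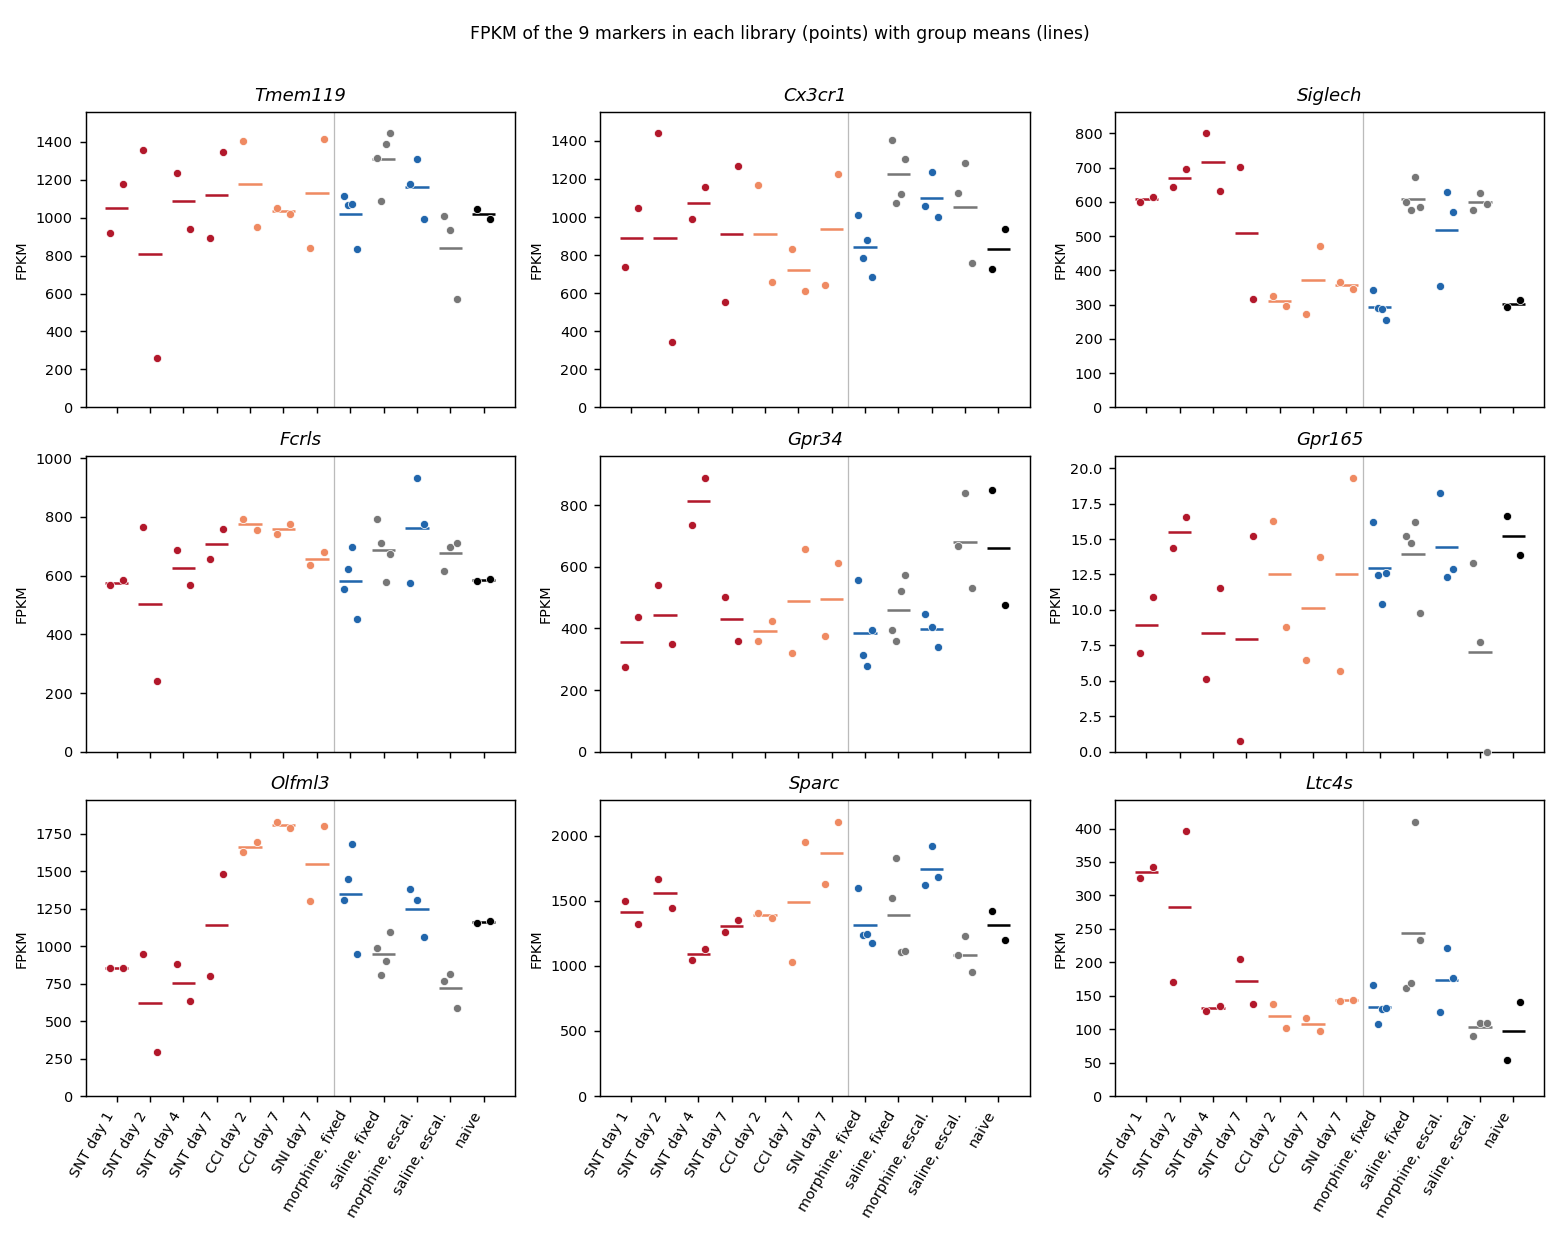
FPKM of each marker (vertical axis, linear, from 0) in the 12 groups (horizontal axis). Points are single libraries and lines are group means, coloured red for SNT, orange for CCI and SNI, blue for morphine, grey for saline and black for naive, with a grey vertical line between injury groups and the rest. Siglech sits at 256 to 344 FPKM in fixed morphine and at 577 to 672 FPKM in fixed saline, and Olfml3 at 1300.5 FPKM or more in every CCI and SNI library.

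Nerve injury left the 9 markers without a called change. Against the 9 control libraries (naive and saline together), limma with Benjamini-Hochberg adjustment over 11759 genes called 0 of 9 markers at an adjusted p under 0.05 in each of the 7 injury groups. The background was as low: it called 0.0170% of genes in SNT day 1, 0% in SNT day 2, 0% in SNT day 4, 0.204% in SNT day 7, 0.00850% in CCI day 2, 0% in CCI day 7 and 0% in SNI day 7. At an unadjusted p under 0.05 it listed 1 of 9 markers and 1899 genes in SNT day 1, 1 and 862 in SNT day 2, 0 and 275 in SNT day 4, and 0 and 1044 in SNT day 7. The same counts were 2 and 1263 in CCI day 2, 1 and 1146 in CCI day 7, and 1 and 478 in SNI day 7. With all 14 injury libraries in 1 contrast, 0 of 9 markers and 0% of genes were called, with 0 markers and 650 genes at an unadjusted p under 0.05. In that comparison the fitted differences ran from -0.32 for Cx3cr1 (95% interval -0.80 to 0.16) to 0.26 for Olfml3 (-0.15 to 0.66). The bounds of the 9 intervals reached -0.95 and 0.88, both for Gpr165. The median difference was -0.05 for the 9 markers and 0.01 for all genes tested. The counts of all genes depend on single libraries, and leaving out the second library of a group (the first in SNT day 2) gave 10.4% in SNT day 1, 9.72% in SNT day 2, 8.56% in SNT day 7 and 0.850% in CCI day 7, each with 1 library left in the group. In the SNT groups 0 of 9 markers lay wholly above or below the controls, where 6.23% of genes did so on day 1, 2.30% on day 2, 3.55% on day 4 and 4.58% on day 7. The 9 controls were not alike. Between saline and naive libraries 16.3% of genes did not overlap, among them Siglech (higher in saline) and Olfml3 (lower in saline). For Siglech the SD of log2(FPKM + 1) was 0.44 in the 9 controls and 0.08 in saline.

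Morphine on the fixed regimen was the 1 setting in which a marker was called. Siglech was lower there than in fixed saline. Its difference from the naive mice was -0.05, and its call was lost with the log2 floor as a covariate. Limma called 1 of 9 markers where it called 18.0% of all genes. That background moved with single libraries, from 757 to 2639 genes with 1 library left out, against 2119 with all of them. It was 6.44% and 7.07% without fixed morphine replicates 2 and 3, and 7.91% and 8.24% without fixed saline replicates 5 and 6. Siglech was called each time, and these fits had 1 library fewer in a group. Genes called as lower made up 4.46% of those tested. The median difference of the 9 markers was -0.28, and that of all genes was 0.22. The marker median depended on the scaling, at -0.51 with median-ratio scaling, -0.019 with quantile normalization, 0.012 centred on the core microglial list and 0.023 with TPM rescaling. At an unadjusted p under 0.05 the test listed 4 of 9 markers (Siglech, Cx3cr1, Ltc4s and Olfml3) and 4086 genes. Morphine on the escalating regimen gave 0 of 9 markers called against a background of 0.0340%, with 5 of 9 markers and 2254 genes at an unadjusted p under 0.05. Without escalating saline replicate 8 it called 0 markers and 3.95% of genes. The median of the markers in the escalating comparison was 0.50 and that of all genes 0.16. The 2 regimens are each set against their own saline group.

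Siglech, at chr7:55768178-55778925 on the plus strand in GRCm38, had 344, 289, 286 and 256 FPKM in the 4 fixed-morphine libraries, against 599.6, 577, 672 and 585 FPKM in the 4 fixed-saline libraries. Every fixed-morphine library lay below every fixed-saline library. The means were 294 ± 36.5 FPKM in fixed morphine and 608 ± 43.3 FPKM in fixed saline (SD, n = 4 each), a log2 difference of -1.05 (SE 0.19, 95% interval -1.46 to -0.65, limma adjusted p = 0.00606). Groups that do not overlap were common in this comparison, at 29.6% of genes and 2 of 9 markers. The size of the difference depended on the scaling. It was -0.74 with quantile normalization, -0.75 with TPM rescaling, -0.76 centred on the core microglial list and -1.28 with median-ratio scaling. The call was lost with the log2 floor as a covariate (-0.57, limma adjusted p = 0.992) and kept without each library in turn. Against the naive mice in place of saline, the difference of fixed morphine was -0.05 (95% interval -0.64 to 0.54).

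Siglech in the naive mice, at 292 and 314 FPKM, lay inside the range of fixed morphine. Saline as a whole averaged 604 ± 34.1 FPKM (SD, n = 7) and naive 303 ± 16.1 FPKM (SD, n = 2), a difference of 0.99 (SE 0.27, limma adjusted p = 0.0787) with every saline library above both naive libraries. That comparison called 0 of 9 markers against a background of 0.604% of genes (2 of 9 markers and 1504 genes at an unadjusted p under 0.05), and 16.3% of genes did not overlap. The same difference of 0.99 was called when SNT day 7 replicate 1 was left out (limma adjusted p = 0.0181), when SNT day 7 replicate 2 was (0.0183) and when escalating morphine replicate 1 was (0.0355), since these libraries share the fit. The share of all genes called was 2.92%, 2.92% and 2.13% in these fits.

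The level of Siglech followed the floor of the library across all groups. It was 256 to 367 FPKM in the 11 libraries with a floor under 0.2, 292 to 624.96 FPKM in the 5 with a floor of 0.2 to 0.3, and 570.3 to 799 FPKM in the 14 with a floor over 0.3. The libraries under 0.2 and over 0.3 did not overlap. Both groups with libraries under 0.2 and over 0.3 were split in the same way. In escalating morphine, replicate 1 with a floor of 0.146 had 354 FPKM, and replicates 2 and 3 with floors of 0.401 and 0.450 had 628 and 570.3 FPKM. In SNT day 7, replicate 2 with a floor of 0.148 had 318 FPKM and replicate 1 with a floor of 0.438 had 701 FPKM. Smaller gaps in floor within a group also went the other way. The naive library with a floor of 0.269 had 292 FPKM and the other, with a floor of 0.0977, had 314 FPKM, and in SNT day 2 the library with a floor of 0.599 had 644 FPKM and the other, with a floor of 0.376, had 695 FPKM. Since the floors of fixed morphine and fixed saline did not overlap, the regimen and the floor cannot be told apart in that comparison. Neutrophil markers summed to 1849 to 19009 FPKM in fixed morphine and 7413 to 28998 FPKM in fixed saline, and their part in the result was not tested.

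**Figure D2:**
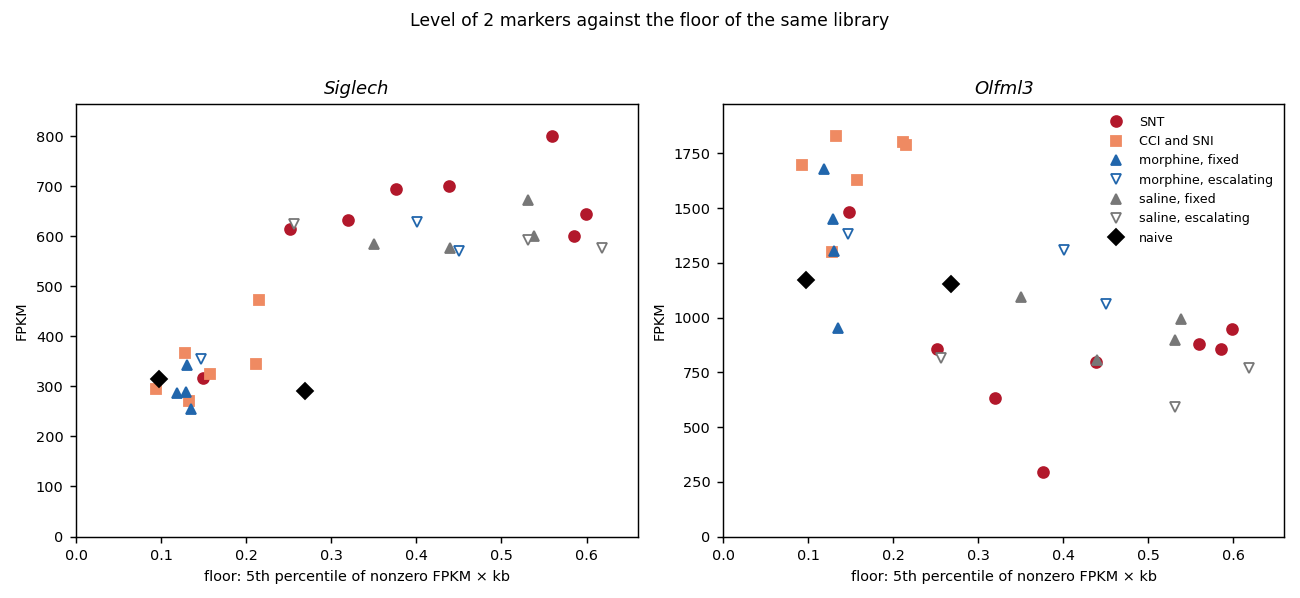
FPKM of Siglech (left) and Olfml3 (right) on linear axes from 0 against the floor of the same library, the 5th percentile of nonzero FPKM times transcript length in kilobases. Each point is 1 of 30 libraries, with symbols for the groups. Siglech lies at or below 367 FPKM in all 11 libraries with a floor under 0.2 and at or above 570.3 FPKM in all 14 with a floor over 0.3, and Olfml3 runs the other way with overlap.

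In the injury groups Siglech had 601 and 614 FPKM in SNT day 1, 644 and 695 in SNT day 2, 799 and 633 in SNT day 4, and 701 and 318 in SNT day 7. It had 325 and 295 FPKM in CCI day 2, 272 and 472 in CCI day 7, and 367 and 345 in SNI day 7, against 292 to 672 FPKM in the 9 controls. The SNT libraries other than SNT day 7 replicate 2 lay with the saline libraries or above them, and the CCI and SNI libraries lay below every saline library. CCI day 2 differed from the controls by -0.74 (95% interval -1.44 to -0.04, limma adjusted p = 0.446), and its libraries overlapped with them. Against the naive libraries alone the difference was 0.030. CCI at days 2 and 7 averaged 341 ± 90.0 FPKM and SNT on the same days 589 ± 183 FPKM (SD, n = 4 each), a difference of -0.75 (limma adjusted p = 0.186). That difference was called without SNT day 7 replicate 2 (-1.04, limma adjusted p = 0.0191), in a fit that called 28.8% of all genes. Under escalating morphine Siglech averaged 517 ± 144 FPKM, against 598 ± 24.3 FPKM in escalating saline (SD, n = 3 each), a difference of -0.25 (95% interval -0.72 to 0.21). Against the naive libraries in place of saline its direction turned, at 0.73 (95% interval 0.11 to 1.35, limma adjusted p = 1).

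Fcrls, at chr3:87250758-87263738, varied little between conditions apart from 1 library. Its fitted difference was -0.05 in all injuries (95% interval -0.39 to 0.29), -0.25 in fixed morphine (-0.68 to 0.18) and 0.15 in escalating morphine (-0.35 to 0.64). Its lowest value of the 30 libraries was 239.7 FPKM in SNT day 2 replicate 2, while SNT day 2 replicate 1 had 765 FPKM. The CCI libraries had 794, 756, 743 and 775 FPKM, inside the control range of 577 to 791 FPKM but for the first.

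Among the G protein-coupled receptors, Cx3cr1, the fractalkine receptor, had 1011, 786, 878 and 687 FPKM in fixed morphine, against 1406, 1073, 1119 and 1307 FPKM in fixed saline. The groups did not overlap. Its difference of -0.55 (SE 0.21, 95% interval -0.998 to -0.10) did not pass, with a limma adjusted p = 0.0786. The naive mice had 727 and 935 FPKM, within the span of fixed morphine. Escalating morphine averaged 1099 ± 125 FPKM and escalating saline 1055 ± 270.0 FPKM (SD, n = 3 each), a difference of 0.09 (95% interval -0.43 to 0.60). In GENCODE M21 the span of Cx3cr1, chr9:119901616-120069879, overlaps 9 other genes. Smart-Seq2 libraries do not mark strand, so reads from sequence that transcripts of different genes share cannot be told apart. The overlaps given here are of whole gene spans, and shared transcript sequence was not looked at.

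Gpr34, at chrX:13632089-13640858 and overlapping Cask on the other strand, had 447, 404 and 340.1 FPKM in escalating morphine, against 666, 839 and 531 FPKM in escalating saline. All 3 escalating-morphine libraries were lower, with a difference of -0.76 (95% interval -1.36 to -0.16, limma adjusted p = 0.176). In fixed morphine it had 557, 314, 279 and 394 FPKM and in fixed saline 393, 359, 521 and 573 FPKM, which overlapped (difference -0.28, 95% interval -0.80 to 0.24). The highest group was SNT day 4, with 737 and 889 FPKM, and the lowest was SNT day 1, with 274 and 437 FPKM. The test across the 4 SNT days called 0 of 9 markers against a background of 0.00850% of genes (limma F-test), with 0 markers and 1350 genes at an unadjusted p under 0.05. Without SNT day 2 replicate 1 it called Tmem119 and Fcrls and 4.64% of genes.

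Gpr165, at chrX:96713441-96719388, had 18.2, 12.3 and 12.9 FPKM in escalating morphine, against 13.3, 7.73 and 0 FPKM in escalating saline, the last in replicate 9, where it is listed at 0. The groups overlapped, and the fitted difference of 1.61 (95% interval 0.17 to 3.05, limma adjusted p = 0.221) rests on that listed 0. In fixed morphine it averaged 12.9 ± 2.41 FPKM and in fixed saline 13.97 ± 2.87 FPKM (SD, n = 4 each). Its intervals were the widest of the 9 markers in all injuries together and in both regimens.

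Tmem119, at chr5:113793729-113800516, had 1115, 1066, 1070.3 and 833 FPKM in fixed morphine, against 1316, 1089, 1388 and 1443 FPKM in fixed saline, which overlapped (difference -0.36, 95% interval -0.82 to 0.10). It averaged 1160 ± 159 FPKM in escalating morphine and 838 ± 234 FPKM in escalating saline (SD, n = 3 each), with a difference of 0.50 (95% interval -0.03 to 1.03). In escalating saline the low library was replicate 9, at 572 FPKM. SNT day 2 held both the highest and the lowest of the 8 SNT libraries, with 1358 FPKM in replicate 1 and 262 FPKM in replicate 2. In all injuries together the difference was -0.09 (95% interval -0.57 to 0.40).

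SNT day 2 replicate 2 had the lowest value of all 30 libraries for 4 of the 9 markers: Tmem119, Cx3cr1 (345 FPKM), Fcrls and Olfml3 (294 FPKM). SNT day 2 replicate 1 had 1439 FPKM of Cx3cr1, the highest of all libraries, and 946 FPKM of Olfml3. The low library also had 469 FPKM of Csf1r and 49.1 FPKM of Itgam, the lowest values of both, but 695 FPKM of Siglech and 1445 FPKM of Sparc. It is 1 of the 3 libraries with under 9000 genes, and its neutrophil markers summed to 20986 FPKM, against 3316 FPKM in replicate 1. Their part was not tested. With SNT day 2 replicate 1 left out, the group is this 1 library and its spread is assumed to be that of the other groups. Limma then called these 4 markers and 9.72% of all genes, which restates that this library stands apart. With replicate 2 left out it called 0 markers.

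Of the secreted glycoproteins, Olfml3, at chr3:103722222-103738001, was high after constriction and spared nerve injury. It had 1629.5 and 1696 FPKM in CCI day 2, 1827 and 1789 FPKM in CCI day 7, and 1300.5 and 1800.5 FPKM in SNI day 7, against 589.6 to 1172 FPKM in the 9 controls. All 6 of these libraries lay above all 9 controls. The differences were 0.88 in CCI day 2 (95% interval 0.14 to 1.62, limma adjusted p = 0.422), 1.00 in CCI day 7 (0.27 to 1.74, limma adjusted p = 0.336) and 0.76 in SNI day 7 (0.03 to 1.4995, limma adjusted p = 0.999), none past the threshold. Groups without overlap made up 10.3% of genes in CCI day 2, 9.33% in CCI day 7 and 3.09% in SNI day 7. With limma array weights the CCI day 7 difference was called (0.98, limma adjusted p = 0.0142), as were 9.08% of all genes. Against the naive libraries alone the differences were 0.51, 0.64 and 0.39. Floors were 0.0933 to 0.215 in the CCI and SNI libraries, 0.256 to 0.618 in saline, and 0.0977 and 0.269 in naive. The part of the floor in these injury differences was not tested.

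SNT gave lower Olfml3 values than CCI. CCI at days 2 and 7 averaged 1735 ± 89.7 FPKM and SNT on the same days 880.3 ± 489 FPKM (SD, n = 4 each), with every CCI library above every SNT library. The difference was 1.19 (SE 0.32, 95% interval 0.53 to 1.86, limma adjusted p = 0.102), in a comparison that called 0 of 9 markers against 0% of genes (3 markers and 2643 genes at an unadjusted p under 0.05). Genes without overlap made up 3.69%. It was called without SNT day 2 replicate 1 (1.61) and without SNT day 7 replicate 2 (1.42), where 16.1% and 28.8% of all genes were called. SNT libraries had 857 and 858 FPKM on day 1, 946 and 294 on day 2, 879 and 635 on day 4, and 798 and 1483 on day 7. The SNT day 7 library at 1483 FPKM had a floor of 0.148, and the other had 0.438. Floors were 0.376 and 0.599 in SNT day 2 and 0.0933 to 0.215 in CCI. The part of the floor in the difference between CCI and SNT was not tested.

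Under morphine Olfml3 had 1306, 1451, 1679 and 951 FPKM on the fixed regimen, against 991, 807, 898 and 1094 FPKM in fixed saline, a difference of 0.49 (95% interval 0.03 to 0.94, limma adjusted p = 0.12). Replicate 4 lay among the saline libraries and the other 3 lay above them. On the escalating regimen it had 1381, 1307 and 1063 FPKM, against 770.01, 814 and 589.6 FPKM in escalating saline. The lowest of these saline libraries was replicate 9, whose neutrophil markers summed to 63254 FPKM, and their part was not tested. All 3 escalating-morphine libraries were higher, with a difference of 0.79 (SE 0.24, 95% interval 0.27 to 1.32, limma adjusted p = 0.127). Groups without overlap made up 18.3% of genes there, and 4 of 9 markers, 3 higher (Olfml3, Sparc and Ltc4s) and 1 lower (Gpr34). Against the naive libraries, with 1156 and 1172 FPKM, the differences were 0.18 for the fixed and 0.10 for the escalating regimen. Olfml3 also moved with the floor, with a median of 1451 FPKM in libraries under 0.2 and 868 FPKM in those over 0.3, though these ranges overlapped (951 to 1827 and 294 to 1307 FPKM). The part of the floor in these differences was not tested.

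Sparc, at chr11:55394500-55423183, had the smallest ratio of highest to lowest library of the 8 markers with a ratio. Its values were 1621, 1922 and 1685 FPKM in escalating morphine, against 1083, 1227 and 949.6 FPKM in escalating saline, with no overlap (difference 0.69, SE 0.24, 95% interval 0.16 to 1.21, limma adjusted p = 0.163). The lowest escalating-saline library was replicate 9, whose neutrophil markers summed to 63254 FPKM, and their part was not tested. On the fixed regimen Sparc averaged 1314 ± 190.3 FPKM in morphine and 1391 ± 349 FPKM in saline (SD, n = 4 each), a difference of -0.06 (95% interval -0.51 to 0.39). In all injuries the difference was 0.18 (95% interval -0.15 to 0.51), and the highest library was SNI day 7 replicate 2, at 2102 FPKM. Endothelial cells also make Sparc, and the 11 endothelial and mural markers summed to 5.18 to 14.2 FPKM in injured mice, 5.27 to 17.8 under morphine and 5.67 to 30.2 in controls. Their part in the level of Sparc was not tested.

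Ltc4s, at chr11:50236461-50238616 and overlapping Gm26542 on the other strand, had its highest group means on days 1 and 2 after transection. It had 326 and 343 FPKM in SNT day 1 and 170.0 and 397 in SNT day 2, then 127 and 135 in SNT day 4 and 205 and 138 in SNT day 7, against 54.0 to 409 FPKM in the 9 controls. The day 1 difference of 1.24 (95% interval 0.28 to 2.21, limma adjusted p = 0.217) did not pass, and fixed saline replicate 5 had more than either SNT day 1 library. CCI at days 2 and 7 averaged 113 ± 17.8 FPKM and SNT on the same days 228 ± 116 FPKM (SD, n = 4 each), a difference of -0.89 (limma adjusted p = 0.218) with no overlap.

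For Ltc4s the fitted differences of the 2 morphine regimens had opposite signs, none past the threshold, and the saline groups did not overlap. Against the naive libraries both were positive, at 0.59 (fixed) and 0.95 (escalating). Fixed morphine had 166, 108, 129.6 and 131 FPKM and fixed saline 161, 169, 409 and 234 FPKM, a difference of -0.77 (95% interval -1.36 to -0.18, limma adjusted p = 0.0644). Escalating morphine had 125, 221 and 176 FPKM and escalating saline 90.4, 109 and 109 FPKM, a difference of 0.72 (95% interval 0.04 to 1.399, limma adjusted p = 0.237). Fixed saline exceeded escalating saline by 1.13 (95% interval 0.44 to 1.82, limma adjusted p = 0.279) with no overlap. That comparison called 0 of 9 markers against 0% of genes (2 markers and 1046 genes at an unadjusted p under 0.05). In it 9.69% of genes and 2 of 9 markers (Ltc4s and Tmem119) did not overlap. Mast cells also express Ltc4s, and the 8 mast cell and basophil markers summed to 0 to 4.64 FPKM in injured mice, 0.0730 to 2.73 under morphine and 0 to 20.6 in controls, with 2 to 8 of them listed at 0 in each library of the morphine and saline groups. Their part in the level of Ltc4s was not tested.

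**Figure D3:**
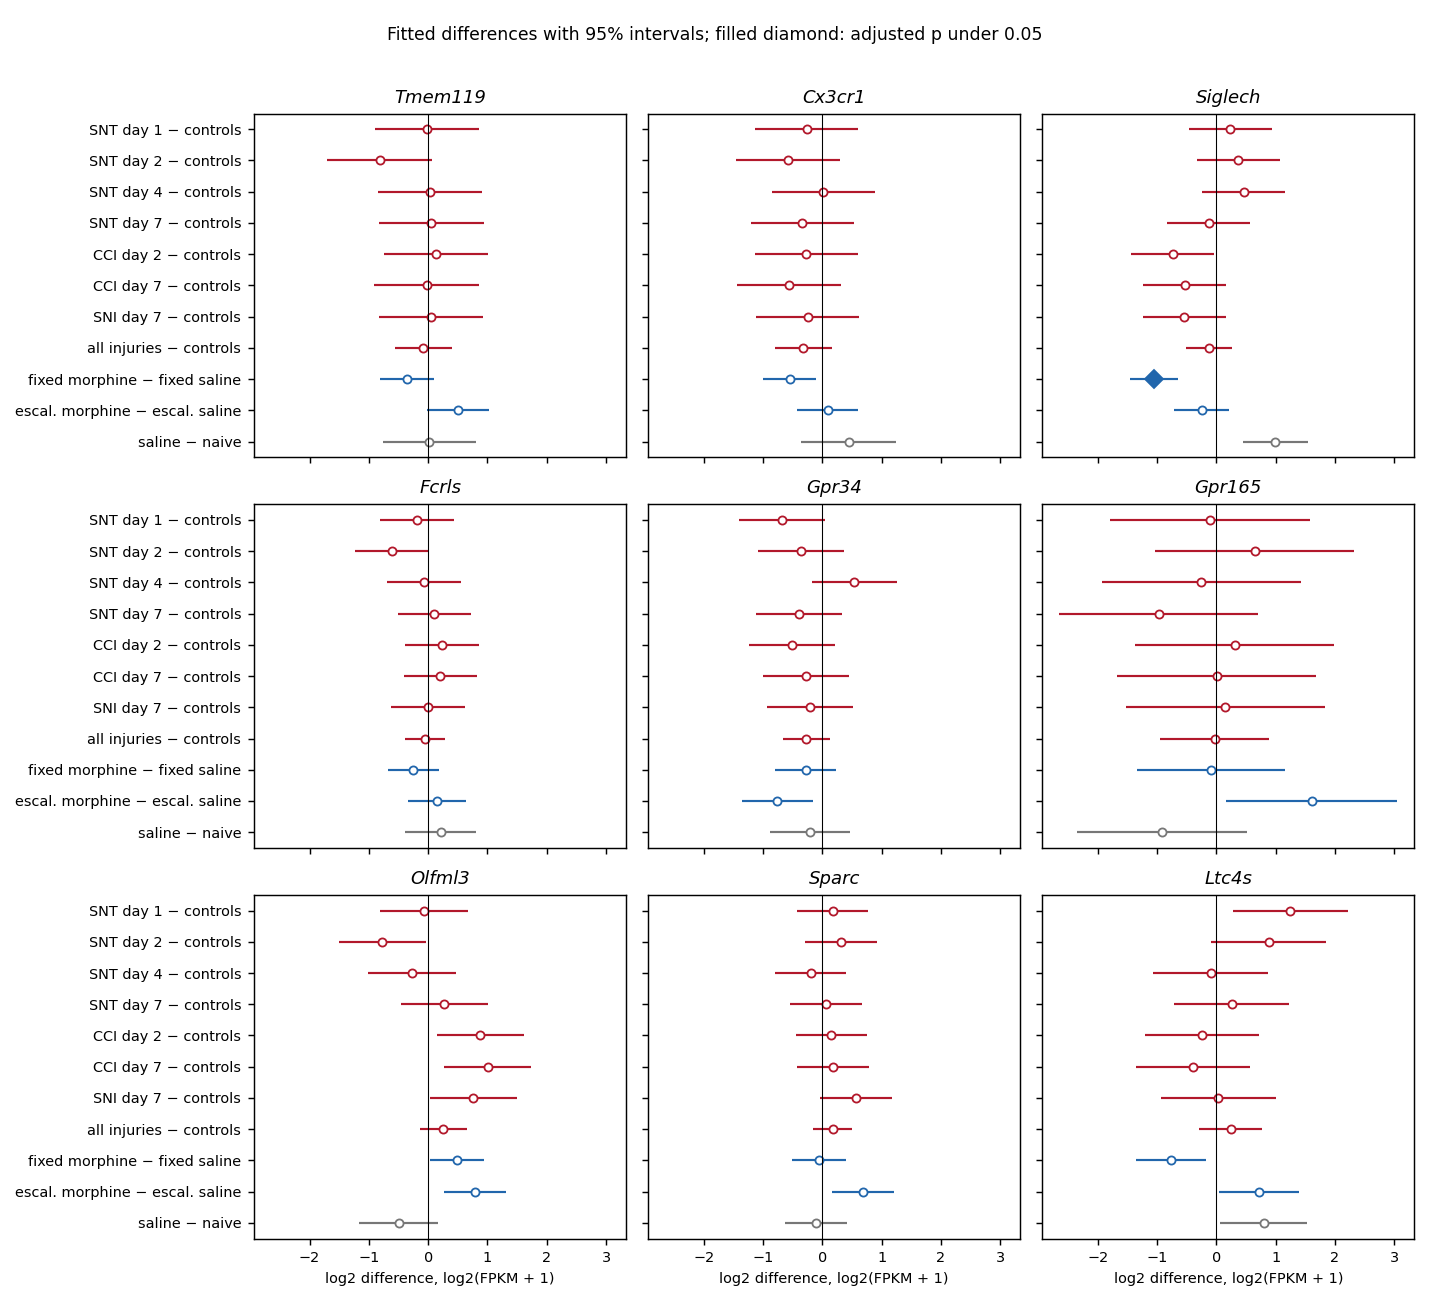
Fitted log2 differences (horizontal axis, on the log2(FPKM + 1) scale) with 95% intervals for each marker in 11 comparisons (vertical axis), red for injury, blue for morphine and grey for saline against naive. The filled diamond marks the 1 call at an adjusted p under 0.05, Siglech in fixed morphine at -1.05, and open circles mark the differences that did not pass.

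The responses to the 2 morphine regimens were set against each other directly. The test of the fixed response minus the escalating response called 0 of 9 markers against a background of 0.00850% of genes (limma), with 4 of 9 markers and 1377 genes at an unadjusted p under 0.05. The differences of those 4 were -1.49 for Ltc4s, -0.86 for Tmem119, -0.80 for Siglech and -0.74 for Sparc, and the lowest limma adjusted p was 0.229, for Ltc4s. The saline groups enter these values. Tmem119, like Ltc4s, was higher in every fixed-saline than in every escalating-saline library (difference 0.68, limma adjusted p = 0.607). Against the naive libraries Tmem119 differed by -0.006 in fixed and 0.18 in escalating morphine. Without escalating morphine replicate 1, the library with the low floor, Siglech (-1.05, limma adjusted p = 0.0243) and Ltc4s (-1.71, limma adjusted p = 0.0442) were called, as were 3.73% of all genes. The escalating-morphine libraries left had floors of 0.40 and 0.45, within those of escalating saline (0.256 to 0.618). Fixed morphine (0.118 to 0.135) stayed wholly below fixed saline (0.350 to 0.539). In that fit the regimen difference and the floor cannot be told apart.

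Other homeostatic microglial genes were called under fixed morphine in both directions. Neither these calls nor those of the other lists held in every setting: over all genes 1 was called with the floor as a covariate and 0 with naive mice in place of saline. Of 47 tested, 20 were called, 9 as higher and 11 as lower, with a median of 0.08 against 0.22 for all genes. This is a larger share than the 18.0% of all genes, and the excess was not tested. Lag3, an inhibitory receptor, averaged 28.3 ± 16.9 FPKM in fixed morphine and 228 ± 32.5 FPKM in fixed saline (SD, n = 4 each), a difference of -3.16 (limma adjusted p = 0.00573). Rnase4, a secreted ribonuclease, differed by -1.38, and the complement gene C1qa by -1.52. Tgfb1, the TGF-beta ligand, differed by 2.66, and all of these were called. Lag3 was also the 1 gene of this list called in saline against naive, at 195 ± 50.3 FPKM in saline (n = 7) and 20.5 ± 3.40 FPKM in naive (n = 2), both with SD, a difference of 3.11 (limma adjusted p = 0.0354).

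Of 35 genes that mark reactive or disease-associated microglia, 7 were called under fixed morphine, close to the share of all genes, with 2 higher and 5 lower and a median of -0.11. The colony-stimulating factor gene Csf1 was higher (difference 1.90), and the chemokine Ccl6 (-1.39), the tetraspanin Cd9 (-0.97) and the MHC class II gene H2-Ab1 (-1.44) were lower. Of 25 genes that pair with the 9 markers by pathway or family, 3 were called as higher and 3 as lower, with a median of 0.15. These 6 calls are a somewhat larger share than the 18.0% of all genes, and the excess was not tested. In the leukotriene pathway Mgst2, a glutathione transferase that can also make leukotriene C4, differed by -2.08, the gamma-glutamyltransferase Ggt5 by -0.66 and the phospholipase Pla2g4a by 1.24. Hcst, the signalling adaptor DAP10, differed by -1.52. In every other comparison, apart from Lag3 above, limma called 0 genes of these 3 lists.

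The 9 markers did not vary as 1 block. Over the 30 libraries, Spearman's rho between pairs ran from -0.70 for Siglech with Olfml3 to 0.72 for Tmem119 with Cx3cr1, with a median of 0.19 over the 36 pairs. It was over 0.5 in 2 pairs, the other being Siglech with Ltc4s at 0.52. These values describe libraries that share groups and floors, and no p is given. Among the 6684 genes that averaged 5 FPKM or more, those most like Tmem119 were Selplg (rho 0.87), Lrrc3 (0.86) and Slc2a5 (0.83), and those most like Cx3cr1 were Trim65 (0.80), Errfi1 (0.79) and Ptpro (0.79). Siglech was most like 1110059G10Rik (0.89), Dnajc24 (0.88) and Fkbp7 (0.88), and Olfml3 most like Shisa5 (0.93), Mmp2 (0.91) and Bsg (0.91). Fcrls followed Clptm1l (0.84), Gpr34 followed Mat2b (0.85), Ltc4s followed Fam89b (0.85), Sparc followed Mpeg1 (0.80) and Gpr165 followed Atxn7l3b (0.69).

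**Figure D4:**
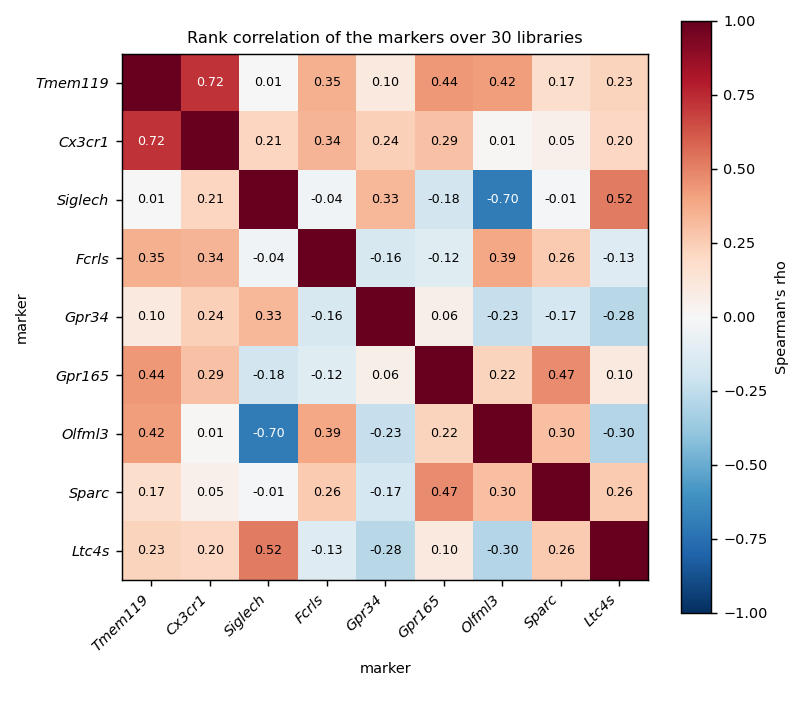
Spearman's rho between each pair of the 9 markers over 30 libraries, from -1 (blue) to 1 (red), with the value in each cell. Tmem119 with Cx3cr1 is highest at 0.72 and Siglech with Olfml3 lowest at -0.70.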

How the data were processed

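The deposited table gives FPKM for 30 libraries, 1 column each, as the authors made it. Per the submitters' processing notes the tools were HISAT2 2.0.5.1, Cufflinks 2.2.1, featureCounts 1.4.6 and DESeq2 with the build mm10, and their roles and the annotation are not given in the sources used here. FPKM cannot be tested as counts, and depth, counting intervals and detection limits cannot be had from it. Rows that share a symbol (826 rows of 281 symbols) were left out. The 11759 genes that reached 1 FPKM in 2 or more libraries were taken as log2(FPKM + 1), so differences understate the change of scarce genes. The test was limma's (version 3.58.1, R 4.3.3), trended on intensity and two-sided, with Benjamini-Hochberg adjustment at 0.05. Injury libraries and the 9 controls made 1 fit, morphine and saline libraries another, and all 30 libraries the last, for saline against naive and for the saline groups. The procedure was tested on simulated data. Summaries were made in pandas 2.3.3 and figures in matplotlib 3.10.9 (Python 3.11.15). Gene positions are from GENCODE M21 (GRCm38) and promoters from RefSeq (GRCm38.p6). Named genes were the 9 markers, the 3 genes most like each by rho (for 5 markers the text gives 1), and from each list up to 4 called genes per comparison by lowest p, with Csf1r, Itgam and P2ry12 as reference levels. The markers and lists were chosen with earlier results of these data known. Alternatives were other pseudocounts, filters, scalings, weights, controls, blocks and left-out libraries. The floor as a covariate, the floor bands and naive mice in place of saline were chosen after seeing the data.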

Additional observations from a re-analysis of the deposited data

Results flagged for a closer look

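In the fixed-morphine group, Sparc had 1596 FPKM in replicate 1, far above the other 3 libraries of that group (1178 to 1245 FPKM). Among the 9 controls, Ltc4s had 409 FPKM in fixed saline replicate 5, far above the next control at 234 FPKM. Both gaps passed Dixon's criterion at the 95% level. Of 27 groups of values looked at in this way, 2 stood out, and chance gives about 1 in 20.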

How the results depend on the processing

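The count of markers called in fixed morphine against fixed saline (1) moved with the setting. It was 2 with quantile normalization (Siglech and Olfml3), 3 with median-ratio scaling (Siglech, Cx3cr1 and Ltc4s), 2 with TPM rescaling, 2 centred on the microglia core list (Siglech and Olfml3 in both), 4 with array weights, 0 with the floor as a covariate, 0 with naive in place of saline and 0 with the replicate block, where Siglech was at -1.04 with a limma adjusted p of 0.456. All genes called numbered 2119 in the fit as reported, 3552 with TPM rescaling, 4030 centred on the core list, 4348 with array weights, 1135 in 1 fit of all libraries, 1 with the floor as a covariate and 0 with the block or with naive controls. Fixed morphine and fixed saline share only replicate numbers 3 and 4, and the numbers were not taken as pairs. The block therefore cannot decide on a call. Called genes split into 1595 higher and 524 lower as reported, 986 and 826 with quantile normalization, and 1039 and 783 with median-ratio scaling. They split into 3247 and 305 with TPM rescaling and 3763 and 267 centred on the core list. The median of all genes was 0.22 as reported, 0.04 with median-ratio scaling, 0.45 with TPM rescaling and 0.51 centred on the core list. Array weights also gave 1 marker called in CCI day 7, 2 in the fixed minus escalating response and 1 in saline against naive, where leaving out the libraries with under 9000 genes gave 1 as well. Leaving out 1 library at a time gave 0 to 4 markers in SNT day 2, 0 to 3 in CCI against SNT, 0 to 2 across SNT days, 1 to 2 in fixed morphine, 0 to 2 in the fixed minus escalating response and 0 to 1 in saline against naive. Among differences with an unadjusted p under 0.05, directions turned for Olfml3 in SNT day 2 (0.069 without the libraries with few genes, and -1.61 to 0.069 with 1 library left out at a time), for Siglech in CCI day 2 (0.030 with the replicate block and with naive controls alone), and with naive in place of saline for Cx3cr1 (0.013) and Ltc4s (0.59) in fixed morphine and Gpr165 (-0.084) in escalating morphine. In the injury fit each saline library has a number of its own, so the block there leaves only the naive libraries as controls. The causes of these turns were not tested.

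Across the alternatives other than left-out libraries, all genes called ran from 0 to 66 in SNT day 1, 0 to 15 in SNT day 2, 0 to 11 in SNT day 4, 0 to 84 in SNT day 7, 0 to 262 in CCI day 2, 0 to 1068 in CCI day 7, 0 to 25 in SNI day 7 and 0 to 3 in all injuries. They ran from 0 to 80 in CCI against SNT, 0 to 49 across SNT days, 0 to 8 in escalating morphine, 0 to 683 in the fixed minus escalating response, 0 to 1198 in saline against naive and 0 to 32 in fixed against escalating saline. With 1 library left out they reached 1221 in SNT day 1, 1143 in SNT day 2, 1006 in SNT day 7, 100 in CCI day 7, 3391 in CCI against SNT, 546 across SNT days, 465 in escalating morphine, 439 in the fixed minus escalating response and 343 in saline against naive, and ran from 757 to 2639 in fixed morphine. Same-numbered libraries did not deviate together (correlations from -0.43 to 0.22), so the numbers were not taken as pairs. No paired analysis was possible because escalating saline shares no number with the groups it is set against, for that regimen, for the regimen difference and for the comparisons between controls. Depth is unknown in FPKM. With 2 libraries in each injury group, intervals for the markers were wide.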
